A study of Rattus norvegicus with 12 samples.

Results

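Enzymes of glycolysis, the pentose phosphate pathway and the citrate cycle were examined in the duodenal mucosa of rats that swam and of sedentary rats. The set was chosen by gene symbol from 44 enzymes and subunits, and 38 of them had a probe, of 13337 named genes on the array. Each was read from its brightest probe over the 12 arrays. Probes of Hk1, Pgam1, Tkt, Pgd, Suclg2 and Pdha1 were not analysed here.

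Glycolysis splits glucose to pyruvate in the cytosol, and lactate dehydrogenase turns pyruvate to lactate and back. The pentose phosphate pathway branches from glucose 6-phosphate and yields NADPH and ribose 5-phosphate, with a return route to glycolysis through transaldolase and transketolase. In mitochondria the pyruvate dehydrogenase complex makes acetyl-CoA, which the citrate cycle oxidises. Small intestinal enterocytes burn glutamine and glucose, take up dietary fructose and phosphorylate it with ketohexokinase, and carry enzymes of gluconeogenesis.

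The study asked how the duodenal epithelium of female rats responds to endurance swimming. Cells were scraped from the mucosa of a duodenal segment of 10 cm, so the samples may hold every cell type of the mucosa, and total RNA was hybridised to single-colour Illumina bead arrays. The 6 swimming rats were trained over 1 week until they could swim for 1 hour per day without stopping, and swam on 5 days per week in a protocol of 2 weeks. The 6 control rats were of the same age and stayed sedentary in the pool for 2 weeks, with water at 30 to 32 °C. All were Sprague-Dawley females, an outbred strain, aged 9 weeks, with no genetic change stated in the labels. In bulk RNA of this kind, fewer cells of a type and less RNA per cell cannot be told apart.

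Raw array medians lay between 62.7 and 88.8 intensity units. The array titled swimming n5, called swimming 5 here, went against its label of duodenum. The mean log2 intensity of 9 measured proximal small intestine markers was 7.77 in swimming 5, 11.82 to 12.15 in the other swimming arrays and 11.77 to 12.12 in control arrays. The mean of 7 large intestine markers was 10.64 in swimming 5, 8.13 to 8.40 in the other swimming arrays and 7.72 to 8.26 in control arrays. Of these 7, Car1, Hoxa7 and Car4 stood above all other arrays by more than 1 log2 in swimming 5. Hoxd10 and Slc26a3 stood above by less, and Aqp8 and Hoxb13 lay inside the range of the others. Markers of epithelium averaged 13.40 in swimming 5, 13.48 to 13.59 in the other swimming arrays and 13.44 to 13.58 in control arrays. Red blood cell markers, 7 of 8 measured, averaged 7.18 in swimming 5, 7.80 to 8.16 in the other swimming arrays and 8.05 to 8.57 in control arrays, with 7 of 7 lower in swimming rats, and 5 of 7 in the restricted comparison. Exocrine pancreas markers, 11 of 12 measured, averaged 6.64 in swimming 5, 6.64 to 10.58 in the other swimming arrays and 6.60 to 9.55 in control arrays, where 9.55 was control 3. The 7 stroma markers averaged 7.55 in swimming 5, 7.64 to 8.35 in the other swimming arrays and 6.88 to 8.33 in control arrays. All 11 pancreas and all 7 stroma markers were higher in swimming rats in each of the 3 comparisons. The pancreas markers were not high in every swimming array. They averaged 7.71, 10.58 and 9.53 in swimming 1, 2 and 3, and 6.64, 6.64 and 6.67 in swimming 4, 5 and 6. Control arrays other than control 3 lay at 6.60 to 6.86. The part of these markers in the differences of the members was not tested. Swimming 3 and control 3 were nearly identical although they carry different group labels, with a spread of 0.078 log2 between their bright probes. So were swimming 4 and swimming 6, at 0.16, and control 4 and control 6, at 0.12. Both pairs inside a group showed less spread over bright probes than over dim ones, and each was therefore counted as 1 sample in every mean ± SD, which gives n = 5 per group, or n = 4 swimming samples when swimming 5 is left out. Differences are given with all 12 arrays unless another set is named, mostly beside the value without swimming 5, and for some members in a restricted comparison of 3 swimming with 4 control samples that also leaves out swimming 3 and control 3 and averages the pairs within groups.

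None of the 38 enzymes and subunits was called as different after swimming. With limma and adjustment over all 22523 probes, 0 probes were called at an adjusted p under 0.05, which is 0% of the array, and the smallest adjusted p of any member was 0.911. That smallest value became 0.891 once swimming 5 was left out, and 0.993 for the restricted comparison. At an unadjusted p under 0.05 stood 1 of 38 members, Taldo1, against 4.78% of all probes. The count was 1 without swimming 5, against 5.05% of probes, and 2 in the restricted comparison, Taldo1 and Cs, against 3.27%. These shares lie near those of the whole array. On the log2 scale used throughout, 13 members were higher in swimming rats and 25 were lower, with a median difference of -0.07, while the median over all probes was -0.001. Without swimming 5 the split was 18 higher and 20 lower with a median of -0.006.

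The data bound what difference in signal could have been missed. The 95% interval of the difference lay within 1 log2 of 0, that is within a doubling or halving, in 32 of 38 members with all arrays. Without swimming 5 it did so in 38 of 38 members, and in the restricted comparison in 36. The fits with all arrays and without swimming 5 count near-identical arrays as separate, so their intervals may be too narrow. The members without swimming 5 had differences from -0.29, in Cs, to 0.37, in Idh2. Of the 38, 34 were brighter than the median probe, and Hk3, Pfkfb1, Pfkfb2 and Pfkfb3 were dimmer, where a difference in signal understates a difference in RNA. The same limit holds for members not far above the median probe, such as Hk2, Pfkm, Aldoc, Ldhb and Pck2. In the authors' processed table, with all arrays, Hk2 differed by 1.08 and Pck2 by 0.90. Values of that table under 10 were set to 10 before the log2 transform, and differences of dim probes can depend on this floor.

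**Figure D1:**
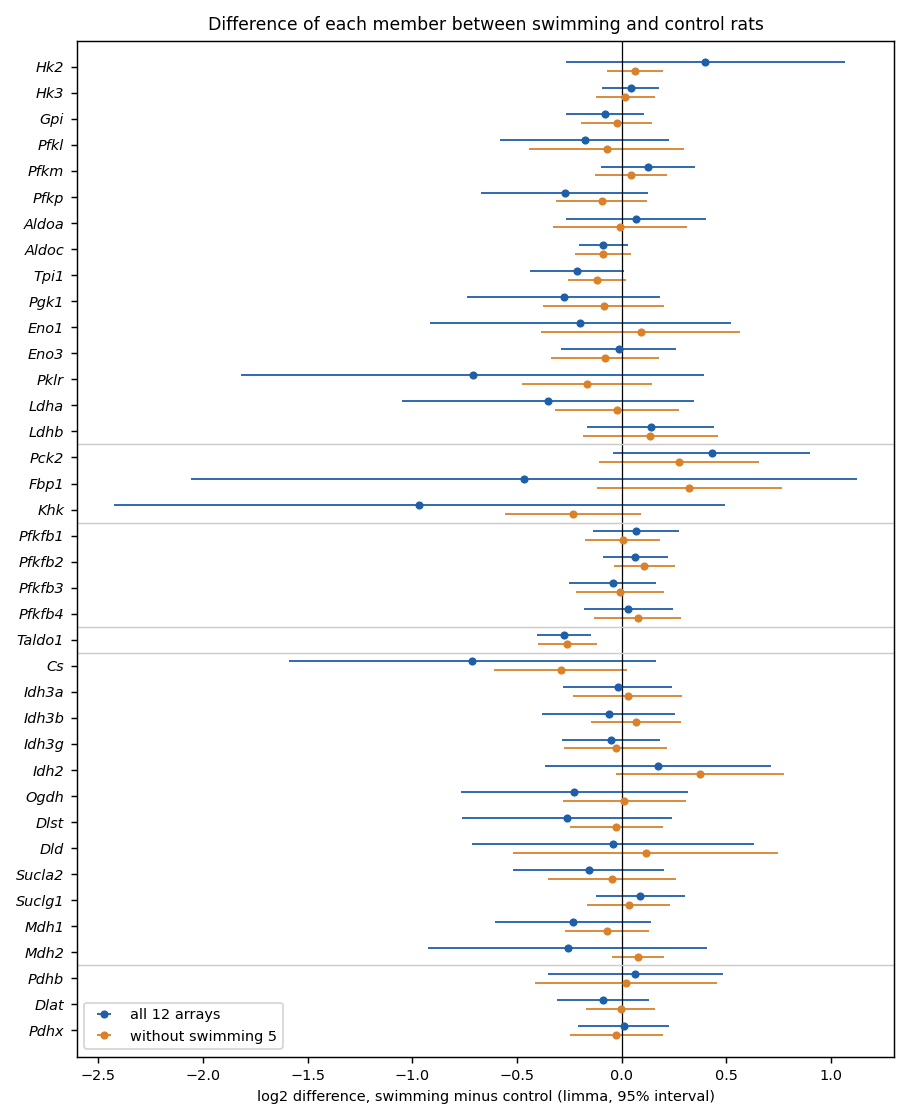
Difference in log2 intensity, swimming minus control, of the 38 measured members (horizontal axis), from limma with its 95% interval. Blue points use all 12 arrays and orange points leave out swimming 5. Grey lines separate glycolysis and lactate, gluconeogenesis and fructose, the Pfkfb enzymes, Taldo1, the citrate cycle and pyruvate dehydrogenase. Only the intervals of Taldo1 exclude 0 in both, at -0.28 and -0.26, and the long blue intervals of Fbp1, Khk and Pklr shorten without swimming 5.

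Taldo1 encodes transaldolase, which moves a part of the carbon chain between sugar phosphates in the non-oxidative branch of the pentose phosphate pathway. It was the single measured member of that pathway. Its log2 intensity had a lowest, median and highest value of 13.94, 13.99 and 14.21 in swimming rats, against 14.23, 14.28 and 14.45 in control rats. The groups did not overlap, although the gap between them was narrow. The highest swimming value, 14.21, was that of swimming 3, and control 3, its near-identical partner, had 14.23. The other 5 swimming arrays lay between 13.94 and 14.00. Means were 14.02 ± 0.11 in swimming and 14.28 ± 0.06 in control rats (SD, n = 5 each), and the fitted difference was -0.28 (SE 0.06, 95% interval -0.40 to -0.15, adjusted p = 0.911 from limma), with 6 of 6 swimming arrays below the control mean.

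The difference in Taldo1 was -0.26 (SE 0.06) without swimming 5 and -0.30 (SE 0.07) in the restricted comparison. Of the 38 members Taldo1 was the 1 whose groups did not overlap in each of the 3 comparisons, against 0.182% of all probes with all arrays, 0.377% without swimming 5 and 5.08% in the restricted comparison. Raw intensities overlapped, at 10429 to 19750 units in swimming and 14400 to 26482 units in control arrays. The groups also overlapped when arrays were scaled by their medians, with a difference of -0.26 (adjusted p = 0.952 from limma), and with cyclic loess normalization, at -0.26 (adjusted p = 0.938). The red blood cell markers were lower as well, and the exocrine pancreas and stroma markers higher. Over 9 other measured genes of the pentose phosphate pathway, 4 read higher and 5 lower in swimming rats, with a median of -0.004 and none at an unadjusted p under 0.05. Among them Prps2, a synthetase that uses ribose 5-phosphate to make phosphoribosyl pyrophosphate, differed by 0.23 (SE 0.14), and Tktl2, a transketolase-like gene, by -0.17 (SE 0.09).

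The RefSeq promoter of Taldo1 in rat assembly GRCr8, 300 bases around the gene's start, is shown because its transcript had the smallest p of the set. Capitals mark GC boxes (GGGCGG), of which it has 1.
Taldo1, chr1:205922946-205923245, plus strand: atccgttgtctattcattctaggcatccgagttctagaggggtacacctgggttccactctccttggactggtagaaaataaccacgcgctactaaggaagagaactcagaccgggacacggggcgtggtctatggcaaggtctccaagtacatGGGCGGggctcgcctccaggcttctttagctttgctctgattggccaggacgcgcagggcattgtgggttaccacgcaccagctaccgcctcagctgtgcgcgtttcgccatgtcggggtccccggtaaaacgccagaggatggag

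**Figure D2:**
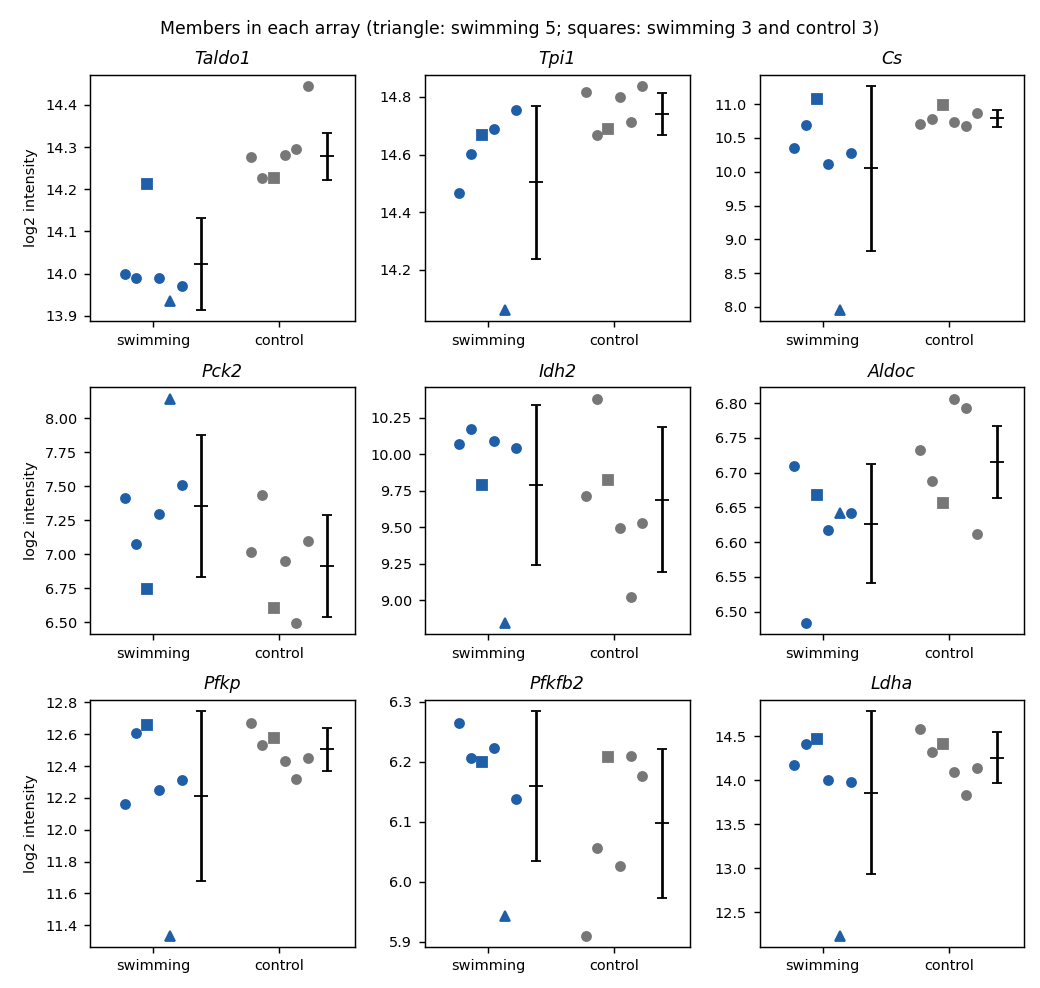
Log2 intensity of 9 members in each array (vertical axis, with its own range in each panel), with swimming arrays in blue on the left and control arrays in grey on the right. Black marks give mean ± SD (n = 5 each, near-identical arrays of a group averaged). The triangle is swimming 5 and the squares are swimming 3 and control 3. In Taldo1 the 6 swimming values, 13.94 to 14.21, lie below the 6 control values, 14.23 to 14.45, and the blue square is the one nearest to the controls.

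Of the glycolysis and lactate enzymes 15 of 17 had a probe. With all arrays 5 read higher and 10 lower in swimming rats, with a median difference of -0.09, and without swimming 5 the split was again 5 to 10 with a median of -0.02. The direction of this median turned, to 0.02, when arrays were scaled by their medians and swimming 5 was left out. The first steps trap glucose and commit it to glycolysis. Hk2, a hexokinase, read 6.37, 6.47 and 8.48 as lowest, median and highest in swimming rats, against 6.29, 6.39 and 6.50 in control rats. The value of 8.48 was that of swimming 5, and the other swimming arrays stayed within 6.53. Its difference was 0.40 (SE 0.31) with all arrays and 0.06 (SE 0.06) without swimming 5. Hk3, another hexokinase, differed by 0.04 and Gpi, the isomerase that makes fructose 6-phosphate, by -0.08, and without swimming 5 by 0.02 and -0.02.

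The 3 phosphofructokinase subunits, which form the enzyme of the committed step, did not move one way. Pfkp, the platelet-type subunit, read 11.34, 12.28 and 12.66 in swimming rats as lowest, median and highest, against 12.32, 12.49 and 12.67 in control rats. Swimming 2 and 3 lay within the control range and the other 4 swimming arrays below it, with swimming 5 the lowest. Its difference was -0.27 (SE 0.18) and -0.10 (SE 0.10) without swimming 5. Pfkl, the liver-type subunit, differed by -0.18 (SE 0.19), and Pfkm, the muscle-type subunit, by 0.13 (SE 0.10), and without swimming 5 by -0.07 and 0.04.

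Aldolases split fructose 1,6-bisphosphate, and triose phosphate isomerase interconverts the products. Aldoc read 6.48, 6.64 and 6.71 in swimming rats, against 6.61, 6.71 and 6.81 in control rats, and the groups overlapped. Its difference was -0.09 (SE 0.05) with all arrays and -0.09 (SE 0.06) without swimming 5. Aldoa differed by 0.07 (SE 0.15), its second probe by 0.23 (SE 0.25), and its main probe by -0.008 (SE 0.15) without swimming 5. Tpi1 read 14.06, 14.64 and 14.75 in swimming rats, against 14.67, 14.75 and 14.84 in control rats. Swimming 1, 2 and 5 lay below every control array and swimming 3, 4 and 6 lay within or at the edge of the control range. Its difference was -0.21 (SE 0.10), which shrank to -0.12 (SE 0.06) without swimming 5. Gapdh, the next enzyme of the pathway and not a member, differed by -0.29 (SE 0.14), and by -0.16 (SE 0.08) without swimming 5.

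In the lower part of the pathway Pgk1, a kinase that yields ATP, differed by -0.28 (SE 0.21), and by -0.09 (SE 0.13) without swimming 5. The enolase Eno1 differed by -0.20 (SE 0.33) and 0.09 (SE 0.22), so its sign depended on that array, and Eno3 by -0.01 (SE 0.13) and -0.08 (SE 0.12). Pklr, the pyruvate kinase of liver, red cells and gut, read 8.71, 11.87 and 12.39 in swimming rats, against 11.89, 12.16 and 12.40 in control rats. Its difference of -0.71 (SE 0.51) became -0.16 (SE 0.14) without swimming 5. Ldha, the lactate dehydrogenase subunit common in glycolytic tissue, read 12.23, 14.09 and 14.47 in swimming rats, against 13.83, 14.23 and 14.59 in control rats. Without swimming 5 the range of Ldha in swimming rats was 13.98 to 14.47, inside that of the controls, and the difference was -0.02 (SE 0.14), against -0.35 (SE 0.32) with all arrays. The difference in Ldhb was 0.14 (SE 0.14), and likewise 0.14 (SE 0.15) without swimming 5.

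Isozyme balance was read as the log2 ratio of a pair of isozymes within each array, with no test, for 8 of 11 listed pairs. A ratio of this kind compares the groups and says nothing of which isozyme is more abundant, since probes differ in response. In every pair the groups overlapped without swimming 5. The ratio of Ldhb to Ldha differed by 0.16 between swimming and control rats without swimming 5, beside an SD of 0.39 in swimming and 0.18 in control samples. That of Eno3 to Eno1 differed by -0.17, beside SDs of 0.14 and 0.54, that of Pfkm to Pfkl by 0.12, beside SDs of 0.42 and 0.47, and that of Aldoc to Aldoa by -0.08, beside SDs of 0.28 and 0.26. The ratio of mitochondrial Idh2 to Idh3a differed by 0.35 without swimming 5 (SD 0.23 in swimming and 0.60 in control samples), which is smaller than the control spread. With all arrays the differences were 0.49 for Ldhb to Ldha, 0.18 for Eno3 to Eno1, where the sign turned, 0.30 for Pfkm to Pfkl, -0.16 for Aldoc to Aldoa and 0.20 for Idh2 to Idh3a. Swimming 5 stood outside the other 11 arrays in 3 ratios, with Ldhb to Ldha 2.08, Eno3 to Eno1 2.04 and Pfkm to Pfkl 1.18 above their mean. Taken singly, swimming 5 differed from that mean by 0.09 in Ldhb and -1.99 in Ldha. For Eno3 and Eno1 this was 0.36 and -1.68, and for Pfkm and Pfkl 0.52 and -0.66. Ldhb, Eno3 and Pfkm averaged 6.81, 7.01 and 6.41, not far above the median probe at 6.36. There a difference in signal understates a difference in RNA, which limits these ratios.

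Fructose entry and gluconeogenesis were represented by Khk, Fbp1 and Pck2. Khk, ketohexokinase, phosphorylates fructose, Fbp1 removes a phosphate from fructose 1,6-bisphosphate in gluconeogenesis, and Pck2 is the mitochondrial phosphoenolpyruvate carboxykinase. Khk read 8.13, 12.42 and 13.03 in swimming rats, against 12.52, 12.73 and 13.05 in control rats. Fbp1 read 7.43, 12.10 and 12.48 in swimming rats, against 11.39, 11.85 and 12.37 in control rats. The lowest value of both was that of swimming 5, and without it the groups overlapped. The difference in Khk was -0.97 (SE 0.67), and -0.23 (SE 0.15) when swimming 5 was left out. For Fbp1 it was -0.47 (SE 0.73), and 0.32 (SE 0.20) when swimming 5 was left out, the opposite sign.

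Pck2 read 6.74, 7.35 and 8.15 in swimming rats, against 6.49, 6.98 and 7.44 in control rats. The highest was swimming 5, and the groups overlapped with and without it. The difference was 0.43 (SE 0.22) with all arrays, 0.27 (SE 0.18) without swimming 5 and 0.30 (SE 0.21) in the restricted comparison. It was 0.90 in the authors' processed table. Pck1, the cytosolic form, is not a member but had the largest difference among the related genes listed for comparison. It read 11.91, 12.47 and 12.68 in swimming rats as lowest, median and highest, against 10.03, 10.84 and 12.58 in control rats, where 12.58 was control 3. No other control array reached the swimming range. Its difference was 1.46 (SE 0.36, adjusted p = 0.911 from limma) with all arrays and 1.40 (SE 0.37) without swimming 5.

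The 4 Pfkfb genes encode bifunctional enzymes that set the level of fructose 2,6-bisphosphate, an activator of phosphofructokinase. Their differences were small, from -0.04 to 0.07 with all arrays and from -0.006 to 0.11 without swimming 5, and 3 of the 4 probes were dim. Pfkfb2 read 5.94, 6.20 and 6.27 in swimming rats, against 5.91, 6.12 and 6.21 in control rats, with swimming 5 lowest among swimming arrays. Its difference was 0.06 (SE 0.07), and 0.11 (SE 0.07) without swimming 5. Pfkfb4, the brighter one, differed by 0.03 (SE 0.10), and by 0.08 (SE 0.10) without swimming 5.

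The pyruvate dehydrogenase complex had 3 of 4 listed subunits on the array. Their median difference was 0.009 with all arrays, -0.005 without swimming 5 and 0.12 with median scaling. Pdhb, a subunit of the decarboxylating component, differed by 0.07 (SE 0.19). Dlat, the acetyltransferase core, differed by -0.09 (SE 0.10), and Pdhx, which anchors the third component to that core, by 0.009 (SE 0.10). Without swimming 5 these were 0.02 for Pdhb, -0.005 for Dlat and -0.03 for Pdhx. Of 10 other measured genes that regulate the complex or carry pyruvate into mitochondria, 3 read higher and 7 lower, and 3 stood at an unadjusted p under 0.05, where 4.78% of all probes did. Without swimming 5 and in the restricted comparison 2 of the 10 stood there. Pdp1, a phosphatase that activates the complex, differed by 0.41 (SE 0.16), and Pdk3, a kinase that inactivates it, by 0.39 (SE 0.16). Mpc2, a subunit of the mitochondrial pyruvate carrier, differed by -0.20 (SE 0.08). Without swimming 5 these differences were 0.28, 0.30 and -0.24. In all 3 the adjusted p from limma was 0.911.

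Of 13 citrate cycle members 12 were measured. With all arrays 2 read higher and 10 lower in swimming rats, with a median of -0.11, and with median scaling the split was 6 to 6 and the median -0.006. Without swimming 5 the split was 7 higher and 5 lower with a median of 0.02, and this sign turned with cyclic loess, to -0.02, and in the authors' processed table, to -0.007. Cs, citrate synthase, which joins acetyl-CoA to oxaloacetate, read 7.96, 10.31 and 11.07 in swimming rats as lowest, median and highest, against 10.67, 10.75 and 10.99 in control rats. Swimming 1, 4, 5 and 6 lay below every control array, swimming 2 and 3 did not, and swimming 3 was the highest of all. Its difference was -0.71 (SE 0.40) with all arrays, -0.29 (SE 0.15) without swimming 5 and -0.33 (SE 0.12, adjusted p = 0.993 from limma) in the restricted comparison.

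Idh2, the NADP-dependent isocitrate dehydrogenase of mitochondria, read 8.85, 10.06 and 10.18 in swimming rats, against 9.02, 9.62 and 10.38 in control rats. The lowest was again swimming 5, and the other 5 swimming arrays held a narrow band from 9.79 to 10.18 inside the wider control range. The difference was 0.18 (SE 0.25) with all arrays and 0.37 (SE 0.19) without swimming 5. The second probe of Idh2 was dim and differed by -0.01 (SE 0.07). The 3 subunits of the NAD-dependent enzyme, Idh3a, Idh3b and Idh3g, differed by -0.02, -0.06 and -0.05 with all arrays, and by 0.03, 0.07 and -0.03 without swimming 5.

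The 2-oxoglutarate dehydrogenase subunits Ogdh and Dlst differed by -0.23 (SE 0.25) and -0.26 (SE 0.23) with all arrays, and by 0.01 and -0.03 without swimming 5. Dld, the lipoamide dehydrogenase that this complex shares with pyruvate dehydrogenase, differed by -0.04 (SE 0.31) with all arrays, by 0.11 (SE 0.29) without swimming 5 and by 0.31 (SE 0.41) in the restricted comparison, and its sign turned in 11 of 25 settings. Among the succinyl-CoA ligase subunits Sucla2 differed by -0.16 (SE 0.17) and Suclg1 by 0.09 (SE 0.10), and without swimming 5 by -0.05 and 0.03. The malate dehydrogenases Mdh1, of the cytosol, and Mdh2, of mitochondria, differed by -0.23 (SE 0.17) and -0.26 (SE 0.31). Without swimming 5 the difference of Mdh1 was -0.07 (SE 0.09). Without it Mdh2 read 14.85 to 15.03 in swimming rats, against 14.78 to 14.94 in control rats, and its difference was 0.08 (SE 0.06).

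**Figure D3:**
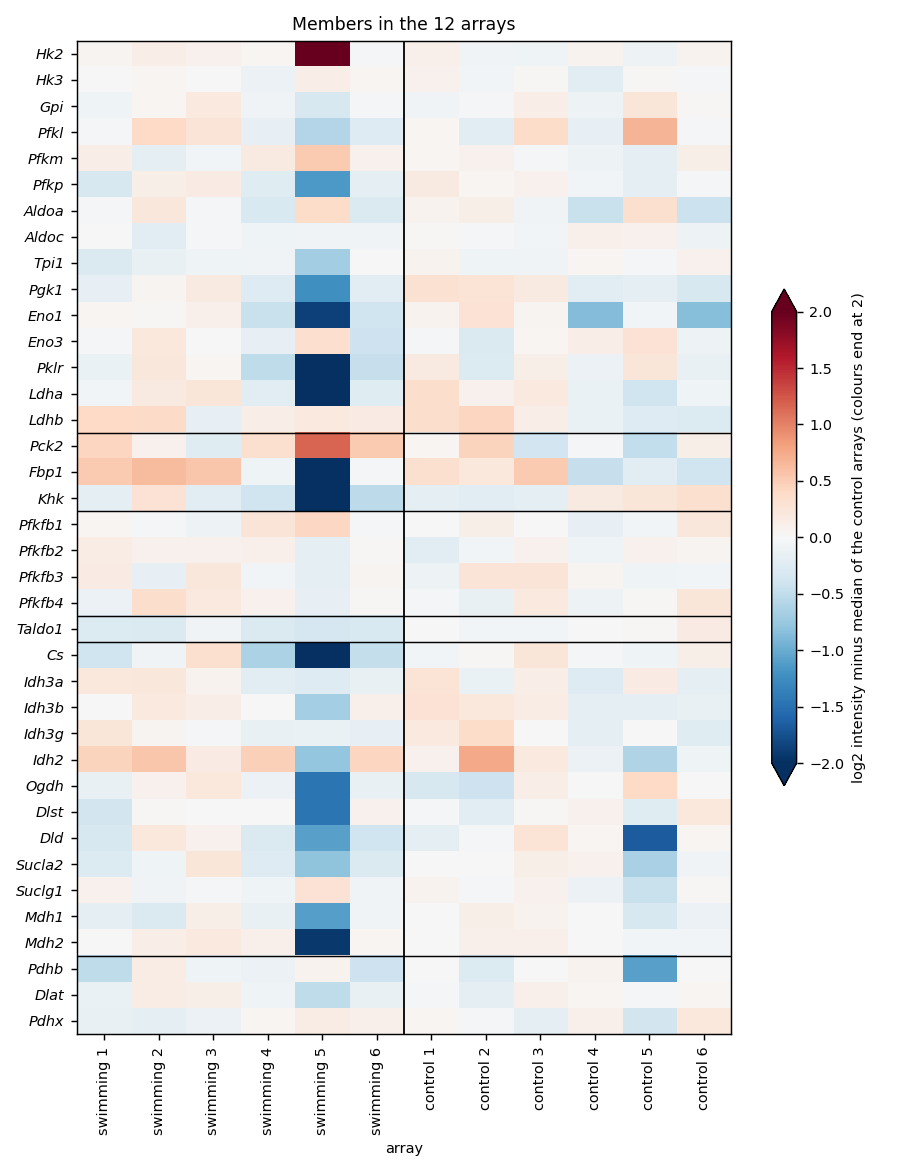
Log2 intensity of each member (down the page, in pathway order) in each array (across, swimming on the left and control on the right), minus the median of the control arrays. Colours end at 2 log2 either way. Swimming 5 is the one column with many dark cells, with Hk2 high and Fbp1, Khk, Pklr and Cs low, and control 5 is low in Dld and Pdhb.

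Control 5 stood at the low end in a number of members that depended on the scaling. Over the 11 arrays without swimming 5 it was the lowest in 13 of 38 members, against 21.2% of bright probes, and the highest in 6, against 20.3% of bright probes. It was the lowest in 9 members with median scaling, 7 with cyclic loess and 11 in the authors' processed table. In the same order it was the highest in 1, 4 and 6. The shares of bright probes were not computed for these scalings. Among the 15 measured citrate cycle and pyruvate dehydrogenase members it was the lowest in 9, namely Dld, Idh2, Idh3b, Mdh1, Mdh2, Pdhb, Pdhx, Sucla2 and Suclg1, of which Mdh1 is cytosolic. It was the lowest also in the cytosolic enzymes Hk2, Ldha and Pfkm and in Pck2. Dld was 8.15 in control 5 against 9.43 to 10.09 in the other 10 arrays, and Pdhb was 10.35 against 10.94 to 11.59. Sucla2 was 11.29 against 11.66 to 12.19, and Suclg1 was 11.76 against 12.08 to 12.29. Ogdh went the other way, at 14.86 against 14.04 to 14.66. This group of 9 was chosen from these values, and it numbered 7 with median scaling, 6 with cyclic loess and 8 in the authors' processed table. Of 11 related citrate cycle genes 4 were lowest in control 5, namely Idh1, Sdha, Sdhd and Slc25a10, named after their values were seen. Markers moved in this array too. The 7 measured proliferating crypt markers averaged 7.67 in control 5, the lowest of the 12 arrays, against 7.85 to 8.22 in the others. Cdk1, a kinase of the cell cycle, was 8.18 against 8.67 to 9.77 in the other 10 arrays, and Epcam, an epithelial adhesion molecule, was 14.35 against 14.73 to 14.98. The crypt markers Pcna, Mcm2 and Ascl2 also lay below the other 10 arrays, whereas Ccnb1, Mcm5 and Lgr5 lay inside their range. Every other measured epithelium marker, namely Cdh1, Vil1, Krt8, Krt20, Cdh17 and Tjp3, lay inside that range as well. The proximal small intestine markers averaged 11.92, within the range of the other control arrays. The part of these markers in the low members was not tested. Without control 5 the median difference of the 12 citrate cycle members was -0.21, against -0.11 with it.

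Swimming 5 stood apart from the other arrays in a part of the set. It lay below all other 11 by more than 1 log2 in 8 members, against 1.91% of all probes and 3.83% of bright probes. The 8 were Fbp1, Khk, Pklr, Cs, Ldha, Mdh2, Ogdh and Dlst. It lay above by more than 1 log2 in 1 member, Hk2, against 1.63% of all probes and 3.04% of bright probes. In 15 more members it lay below and in 7 above by less, and in 7 it lay inside the range of the others. The counts by more than 1 log2 were 7 below and 1 above with median scaling, 6 and 1 with cyclic loess, and 9 and 2 in the authors' processed table. Shares over all probes were not computed for these scalings, nor for lying outside the range by less. As this is 1 array, no test was made.

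The largest gaps were in enzymes of fructose and glucose handling. Fbp1 was 7.43 in swimming 5 against 11.39 to 12.48 in the others, a difference of -4.56 from their mean. Khk was 8.13 against 12.20 to 13.05, a difference of -4.53 from their mean. Pklr was 8.71 against 11.64 to 12.40. In raw intensity Khk read 350 units in swimming 5 against 2896 to 10294, Fbp1 204 against 1849 to 7088, and Pklr 520 against 2073 to 6810. Ldha was 12.23 against 13.83 to 14.59, Cs 7.96 against 10.11 to 11.07, and Mdh2 12.91 against 14.78 to 15.03. Hk2 was 8.48 against 6.29 to 6.53, and its raw intensity was 442 units against 63 to 97. These values moved together with the segment markers given above, and the part of those markers in them was not tested.

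The promoters of the 3 members farthest below the other arrays in swimming 5 and of Hk2, the one farthest above them, are shown side by side from RefSeq (GRCr8, 300 bases each). Capitals mark the GC box, searched on both strands together with the 3 motifs spelled out after the sequences. The 2 GC boxes of Khk and the 1 of Fbp1 were the matches found, and Pklr and Hk2 held none of the 4 motifs in these windows.
Khk, chr6:31175432-31175731, minus strand: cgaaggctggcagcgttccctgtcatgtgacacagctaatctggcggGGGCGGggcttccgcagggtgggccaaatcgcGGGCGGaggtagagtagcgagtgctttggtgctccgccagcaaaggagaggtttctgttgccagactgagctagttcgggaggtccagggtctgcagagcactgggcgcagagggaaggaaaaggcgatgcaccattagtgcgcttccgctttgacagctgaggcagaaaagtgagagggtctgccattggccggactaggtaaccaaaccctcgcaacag
Fbp1, chr17:2213457-2213756, plus strand: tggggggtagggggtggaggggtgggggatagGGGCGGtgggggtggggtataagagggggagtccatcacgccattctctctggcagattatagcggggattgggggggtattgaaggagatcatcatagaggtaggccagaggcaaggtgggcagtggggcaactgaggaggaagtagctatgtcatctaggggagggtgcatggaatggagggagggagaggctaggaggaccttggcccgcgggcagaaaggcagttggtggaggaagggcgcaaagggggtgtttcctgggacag
Pklr, chr2:176841014-176841313, plus strand: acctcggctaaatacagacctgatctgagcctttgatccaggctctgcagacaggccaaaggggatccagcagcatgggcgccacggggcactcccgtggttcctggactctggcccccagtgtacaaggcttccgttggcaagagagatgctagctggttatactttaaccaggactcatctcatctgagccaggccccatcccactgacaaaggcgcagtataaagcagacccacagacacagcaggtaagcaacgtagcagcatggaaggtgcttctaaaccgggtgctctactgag
Hk2, chr4:116841226-116841525, minus strand: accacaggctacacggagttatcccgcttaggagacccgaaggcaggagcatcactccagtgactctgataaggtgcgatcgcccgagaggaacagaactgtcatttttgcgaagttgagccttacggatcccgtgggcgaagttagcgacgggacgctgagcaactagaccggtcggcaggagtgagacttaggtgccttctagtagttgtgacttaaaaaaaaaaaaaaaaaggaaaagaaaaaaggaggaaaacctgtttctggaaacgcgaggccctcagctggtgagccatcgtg

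Promoters were matched for 36 of the 38 members. The GC box stood in 21 of 36, against 33.1% of 33469 rat promoters of the same length. The letters ACGTG, the core of the hypoxia response element, stood in 10 of 36, against 19.3%. AGATAA, bound by GATA factors, stood in 2 of 36, against 11.6%, while GTTAAT, a part of the HNF1 site, stood in 0 of 36, against 7.45%. The median GC content was 58.2% in members and 51.7% in all promoters. Such matches describe these exact letters only, so a binding site written with other letters was not counted.

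**Figure D4:**
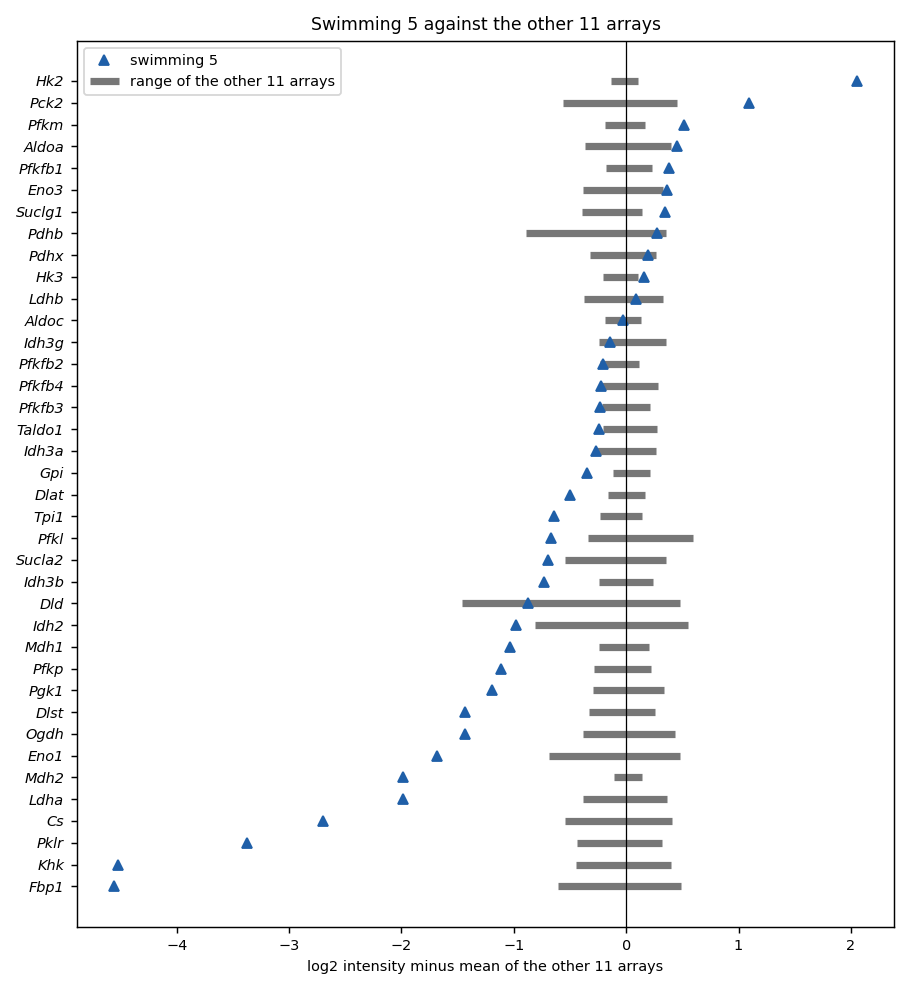
Log2 intensity of each member in swimming 5 (triangles) and the range of the other 11 arrays (grey bars), both minus the mean of those 11 arrays (horizontal axis). Members are ordered from the highest to the lowest value in swimming 5, and the ends are Hk2 at 2.06 and Fbp1 at -4.56.

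A wider list of 110 genes around these pathways had 81 measured. Of these 34 read higher and 47 lower in swimming rats, with a median of -0.06, and 8 stood at an unadjusted p under 0.05, with none called, where 4.78% of all probes stood there. Ldhd, the mitochondrial D-lactate dehydrogenase, read 10.01, 11.76 and 12.46 in swimming rats as lowest, median and highest, against 12.40, 12.75 and 12.96 in control rats. Swimming 3, at 12.46, was the one swimming array within the control range. Its difference was -1.14 (SE 0.34, adjusted p = 0.911 from limma), and -0.83 (SE 0.21) without swimming 5. Slc25a1, the mitochondrial citrate carrier, differed by -0.27 (SE 0.09), Sdhc, a membrane subunit of succinate dehydrogenase, by -0.21 (SE 0.09), and Gbe1, the glycogen branching enzyme, by 0.25 (SE 0.11), and without swimming 5 by -0.22, -0.18 and 0.18. Together with Pck1, Pdp1, Pdk3 and Mpc2 these are the 8.

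Of 9 measured shuttle and anaplerotic enzymes 5 lay below the other 11 arrays by more than 1 log2 in swimming 5, where 1.91% of all probes and 3.83% of bright probes did. Gpd1, the cytosolic glycerol 3-phosphate dehydrogenase, was 7.81 in swimming 5 against 11.93 to 12.97 in the others, and Me1, the cytosolic malic enzyme, was 7.57 against 10.05 to 11.64. Without swimming 5 the median difference of the 9 between swimming and control rats was 0.05, and with it -0.20. Of 8 measured regulators of these pathways none stood at an unadjusted p under 0.05, and Mlx, the partner of the carbohydrate response factors, differed by -0.16 (SE 0.14).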

How the data were processed

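Messenger RNA of 6 swimming and 6 control rats was measured on 1 bead array each, and groups came from the sample titles. Values in the deposited raw table are average bead signals per the file headers, a linear intensity without background subtraction or scaling. The authors also deposited a processed intensity table with a median of 16.0 in every array, whose method was not stated in any source consulted. Between 26.2% and 26.3% of its values per array were below 0. For fits on that table, values under 10 were set to 10 before the log2 transform. With limma 3.58.1 (R 4.3.3) the raw values received normexp background correction with offset 50, quantile normalization and a log2 transform. Differences, swimming minus control, were tested two-sided with lmFit and eBayes on 12 arrays, with Benjamini-Hochberg adjustment over 22523 probes and calls under 0.05. These fits count near-identical arrays as separate, unlike the printed means. Probe names came from the platform annotation, checked by Entrez identifier against the GRCr8 gene table (13752 of 13793 named probes matched). The tables hold no detection calls, and the number of arrays limits precision.

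Per-array values are given by rule for the 6 members of smallest p with all arrays, the 6 without swimming 5, those whose groups do not overlap and the 6 farthest from the others in swimming 5, and up to 4 related genes per role were named by p. Members, lists and tests were chosen with earlier results of these data known. In simulated data with the measured variances, limma recovered 87 of 100 probes changed by 1 log2 and 98 of 100 changed by 2, with 11 false calls among the other probes. That simulation took 6 independent arrays per group and changed bright probes, which these arrays, some of them near-identical, do not match. Alternatives were other background corrections, scalings, filters and prior settings, the authors' table, a replicate block, and leaving out each array.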

Additional observations from a re-analysis of the deposited data

Results flagged for a closer look

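In each group of 5 samples, near-identical arrays averaged, a member's highest or lowest sample was compared with its nearest neighbour by Dixon's criterion. Of 76 groups checked 17 had a sample that stood apart, where chance gives about 1 in 20, and the same held in 8.48% of the groups of all probes and 10.9% of those of bright probes. Of the 17, 12 were swimming 5, which stood apart in 11.5% of the swimming groups of bright probes. The other 5 lay elsewhere, 4 of them in control 5, which stood apart in 3.99% of the control groups of bright probes. No explanation was tested.

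Swimming 5 stood above the other swimming samples in Hk2, at a log2 intensity of 8.48. It stood below them in Fbp1 at 7.43, Khk at 8.13, Pklr at 8.71, Cs at 7.96 and Ldha at 12.23. It also stood below them in Eno1 at 9.58, Mdh2 at 12.91, Ogdh at 12.99, Dlst at 9.79, Idh3b at 11.46 and Pfkfb2 at 5.94. The proximal small intestine markers of this array averaged 7.77, against 11.82 to 12.15 in the other swimming arrays.

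Swimming 3, nearly identical to control 3, stood above the other swimming samples in Taldo1 at 14.21, where the others lay between 13.94 and 14.00. Control 5 stood below the other control samples in 4 members, namely Dld at 8.15, Pdhb at 10.35, Sucla2 at 11.29 and Suclg1 at 11.76. The crypt markers of control 5 averaged 7.67, the lowest of the 12 arrays, and its proximal small intestine markers averaged 11.92, within the 11.77 to 12.12 of all control arrays.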

How the results depend on the processing

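No member or probe was called by limma in any of the settings tried. The count of members at an unadjusted p under 0.05 was 1 with all arrays, 0 with median scaling, 2 in the authors' processed table and 2 in the restricted comparison. With swimming 5 left out as well it was 0 with median scaling and 2 in the authors' table, and leaving out each array in turn gave 1 to 3. Besides Taldo1, these were Tpi1 in the authors' table and without swimming 4 or 6, Pck2 without control 2 or swimming 3, and Cs without swimming 3 and in the restricted comparison. Taldo1 read lower in swimming rats in every setting, from -0.32 to -0.24, and its lowest adjusted p was 0.472, without swimming 3. Over all settings 14 of 38 members kept one sign and 24 did not. The 24 include Pfkfb2 only through the authors' table, where its difference of -5.17e-16 is a rounding residue and no turn of sign. Replicate numbers were not treated as pairs in the main fit. Of 6 correlations of same-numbered deviations 3 were above 0.1, and they ranged from -0.025 to 0.73. The value of 0.73 was that of the near-identical swimming 3 and control 3. The 3 of 6 swimming arrays that correlated best with the control of their own number were 3, 4 and 6. Numbers 4 and 6 are also those of the near-identical pairs within groups. With the replicate block 0 probes were called, and Taldo1 differed by -0.28 (adjusted p = 0.864). Settings with swimming 5 left out as well were chosen after seeing the data. Signal near background limits Hk3, 3 Pfkfb probes and members not far above them. Differences of such members were larger in the authors' table, at 1.08 for Hk2, 0.52 for Pfkm, 0.48 for Ldhb, -0.28 for Aldoc and 0.90 for Pck2. The main fit gave 0.40, 0.13, 0.14, -0.09 and 0.43. Values of the authors' table under 10 were set to 10, and such differences can depend on this floor.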
